A study of Mus musculus with 6 samples.

Results

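The ABC transporter genes of mouse liver were followed in 6 RNA-seq libraries from animals given a cardiac gene-delivery vector with or without target sites for the hepatocyte microRNA miR-122. The members were all rows of the deposited count table whose symbol has the form Abca to Abcg followed by a number and at most 1 further letter, with 1 such gene not analysed here. That left 49 members of 35977 genes in the table, namely 16 of subfamily A, 9 of B, 10 of C, 4 of D, 1 of E, 3 of F and 6 of G. Mice of both groups had received the adeno-associated virus AAV9 carrying Cre recombinase under Tnnt2, a promoter of cardiac muscle (troponin T). In livers labelled Cre-miR122 (replicates 1, 2 and 4) the vector also carried the element that the study's design text writes miR122TS, read here as miR-122 target sites, and in livers labelled Cre (replicates 10, 11 and 12) it did not. The labels give no strain, age, sex, dose or time after injection, and do not state that each library is a different animal, so p-values measure only the spread between these libraries, which may be partly technical.

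ABC proteins bind and hydrolyse ATP, and most use that energy to move lipids, sterols, drugs, conjugated metabolites or peptides across a membrane. In hepatocytes, members on the canalicular membrane put phospholipid, sterols and conjugates into bile, members on the sinusoidal side release lipids and conjugates to the blood, and others work in peroxisomes, mitochondria and lysosomes. The E and F subfamilies carry no membrane domain and act on ribosomes and translation.

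Total counts ran from 20340994 to 20817837 per library. The Cre row held 12, 16 and 10 counts in the Cre-miR122 libraries and 61, 50 and 37 counts in the Cre libraries, without overlap. Cre replicate 10 carried 1676 counts of the Y-linked gene Ddx3y, against at most 1 in each of the other 5 libraries, so it came from a male liver and the others carried no comparable Y-linked RNA. Cre replicate 11 was the highest or lowest library for 48.2% of all 14374 genes tested, more than any other library. The hepatocyte markers Alb, Apoa1, Apob, Ttr, Cps1 and Asgr1 together reached 137756 to 140587 CPM (counts per 1000000 counts of a TMM-scaled library) in the Cre-miR122 libraries and 119383 to 143882 CPM in the Cre libraries. Alb alone averaged 109494 CPM, so these sums mostly follow Alb. Of the 6 markers, 3 lay above 0 on the log2 fold scale and 3 below. Only Cps1 had groups that did not overlap, at 4788, 4398 and 4877 CPM with Cre-miR122 and at 4368, 2563 and 3987 CPM with Cre (log2 fold change 0.37, SE 0.18). Of 6 cardiac and skeletal muscle markers, Myh7 and Actc1 had no count in any library, and Myh6 and Ckm had at most 1. Tnnt2 had 30, 13 and 4 counts in the Cre-miR122 libraries and 13, 10 and 13 counts in the Cre libraries. Acta1 had 0, 1 and 0 counts in the Cre-miR122 libraries and 0, 11 and 0 counts in the Cre libraries. B cell markers summed to 14.7 to 20.7 CPM in the Cre-miR122 libraries and 24.8 to 32.5 CPM in the Cre libraries, with 6 of 6 genes below 0 on the log2 fold scale, and neutrophil markers summed to 12.2 to 13.3 CPM in the Cre-miR122 libraries and 15.5 to 18.9 CPM in the Cre libraries, with 5 of 5 tested genes below 0. Kupffer cell and macrophage markers overlapped, at 419 to 553 CPM in the Cre-miR122 libraries and 499 to 611 CPM in the Cre libraries. The part of such cells in the values that follow was not tested, and in bulk tissue fewer cells of a type and less RNA per cell cannot be told apart.

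Some members start close to a neighbour on the other strand, and windows of such DNA are given here because the levels of the neighbours are compared below. Abcg5 and Abcg8 encode the partner subunits of the canalicular sterol exporter and lie on opposite strands of chromosome 17. RefSeq start sites on build GRCm38.p6 were 110 bases apart (84683011 on the minus strand for Abcg5 and 84683121 on the plus strand for Abcg8). Abca3 and Abca17 form the other pair on chromosome 17, with RefSeq starts 964 bases apart (24351059 on the minus strand for Abca17 and 24352023 on the plus strand for Abca3), so that the Abca3 window does not reach the RefSeq start of Abca17. By the gene limits in the count table the distances differ, with Abca17 and Abca3 126 bases apart and Abcg5 and Abcg8 overlapping (a distance of -6709 bases). The window upstream of Abcc2 is shown because Abcc2 had the smallest unadjusted p of the members. Windows run from 250 bases before to 50 bases after the start site, come from RefSeq and read 5′ to 3′ on the strand of the gene. Capitals mark exact matches on either strand to AGGTCA (the nuclear receptor hexamer), GGGCGG (the GC box), TATAAA (the TATA box), CCAAT (the box of that name), CACGTG (E-box) or TGACNNNGC (antioxidant response element core), and no match overlaps another in these windows.
Abcg5, chr17:84682962-84683261, minus strand: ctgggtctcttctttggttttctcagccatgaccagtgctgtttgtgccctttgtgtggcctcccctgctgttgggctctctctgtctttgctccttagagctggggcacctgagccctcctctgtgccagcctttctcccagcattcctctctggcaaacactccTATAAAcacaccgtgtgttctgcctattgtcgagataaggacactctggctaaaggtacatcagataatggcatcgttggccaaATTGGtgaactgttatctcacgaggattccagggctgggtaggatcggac
Abca3, chr17:24351773-24352072, plus strand: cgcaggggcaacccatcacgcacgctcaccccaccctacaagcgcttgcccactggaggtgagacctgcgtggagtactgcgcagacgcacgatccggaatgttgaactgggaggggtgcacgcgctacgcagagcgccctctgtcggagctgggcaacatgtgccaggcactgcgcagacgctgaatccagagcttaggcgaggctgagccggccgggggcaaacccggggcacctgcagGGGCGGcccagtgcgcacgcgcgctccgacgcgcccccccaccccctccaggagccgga
Abcc2, chr19:43782058-43782357, plus strand: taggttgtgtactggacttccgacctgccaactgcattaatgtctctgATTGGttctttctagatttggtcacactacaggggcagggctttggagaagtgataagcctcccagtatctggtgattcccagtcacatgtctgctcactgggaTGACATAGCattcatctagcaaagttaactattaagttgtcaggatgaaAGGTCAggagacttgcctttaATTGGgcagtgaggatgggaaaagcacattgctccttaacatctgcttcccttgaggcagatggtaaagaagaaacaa

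The window of Abcg5, which also spans the start of Abcg8, held a TATAAA beginning 84 bases before the Abcg5 start and an inverted CCAAT at the start itself, and its GC content was 52.3%. That of Abca3 had a GC content of 69.7% and a single GC box 9 bases before the start. That of Abcc2 had a GC content of 45.0%, with an AGGTCA 49 bases before the start, a TGACNNNGC match 98 bases before it and inverted CCAAT letters at 202 and 28 bases before it. Promoter windows were found for 37 members. AGGTCA stood in those of 4 members (10.8%, against 18.1% of 27025 genes), the GC box in 18 (48.6%, against 38.2%), CCAAT in 15 (40.5%, against 41.1%), TATAAA in 6 (16.2%, against 15.7%), the E-box in 6 (16.2%, against 8.09%) and TGACNNNGC in 5 (13.5%, against 14.0%). These are letter matches in short windows and no more.

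Levels per length were compared as RPKM, that is, CPM divided by gene length in kilobases, TMM being the trimmed mean of M-values, averaged over the 6 libraries. They ranged from 96.9 RPKM for Abcd3 to no count at all. Of the 49 members, 19 reached at least 10 RPKM, 14 lay between 1 and 10 RPKM and 16 lay below 1 RPKM, of which 11 were below 0.1 RPKM. The 10 highest members held 66.5% of the counts of the family. Abcd3, the peroxisomal importer known as PMP70, was highest at 97.8 ± 9.51 RPKM with Cre-miR122 and 95.9 ± 4.73 RPKM with Cre (SD, n = 3 each). Abcg5 followed at 81.3 ± 2.62 RPKM with Cre-miR122 and 83.1 ± 13.5 RPKM with Cre. Library values of Abcd3 and Abcg5 overlapped. A group of 4 with overlapping library values came next: Abcc6 at 43.7 RPKM, Abcg8 at 43.5 RPKM, Abcb4 at 43.0 RPKM and Abcc2 at 40.5 RPKM. Abca8a (23.6 RPKM), Abca6 (23.3 RPKM), Abcd2 (21.5 RPKM) and Abcf1 (20.9 RPKM) completed the highest 10.

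**Figure D1:**
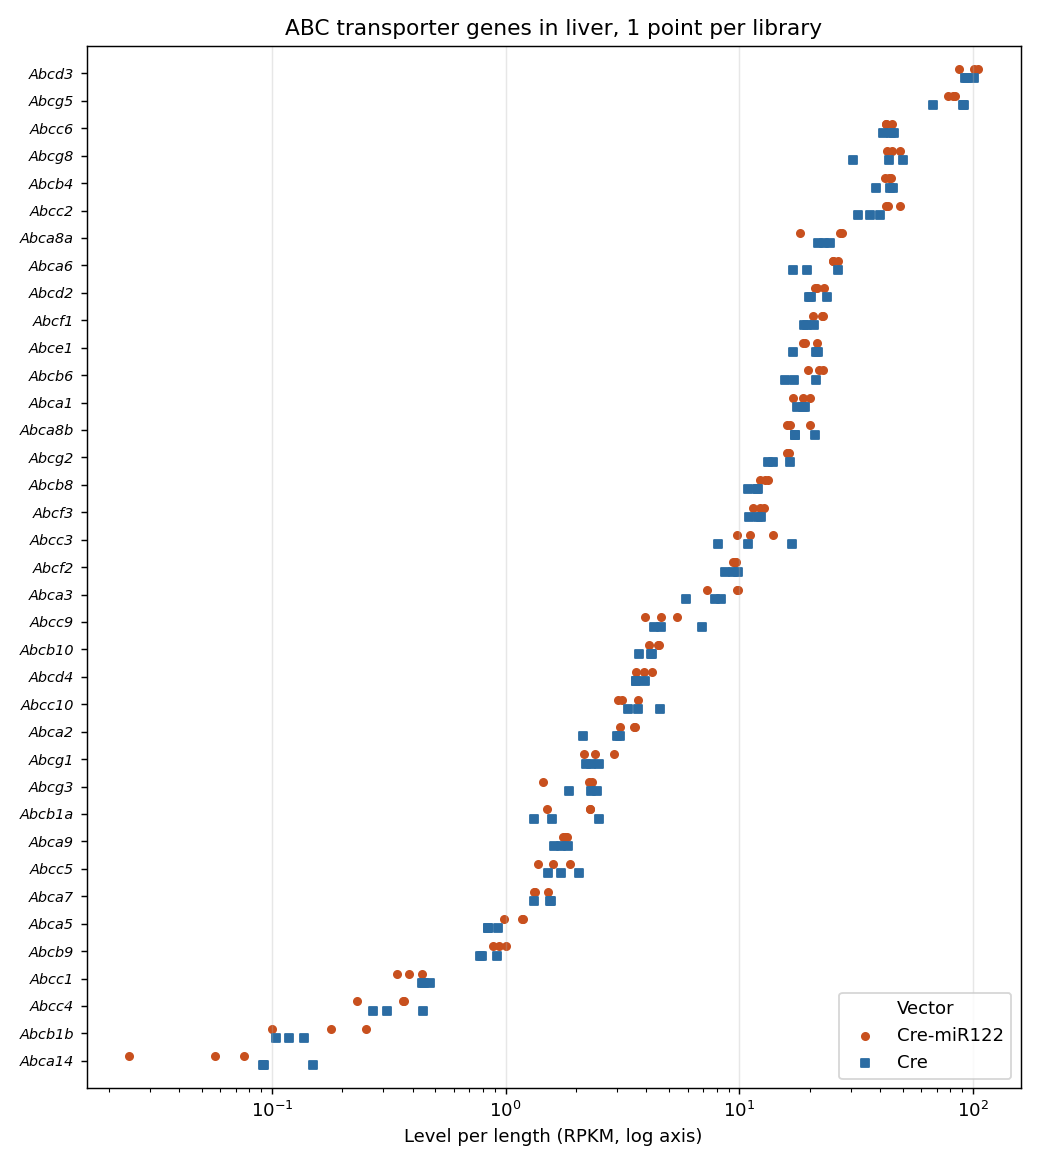
Level per length (RPKM, log axis) of 37 tested ABC genes, 1 point per library, circles for Cre-miR122 and squares for Cre, ordered by the average of the 6 libraries. Abcd3 is at the top (96.9 RPKM on average) and Abca14 at the bottom (0.082 RPKM), and the points of both vectors lie together for most genes.

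Levels differed widely within gene clusters. On chromosome 11 (109932568 to 110337723, GRCm38) 5 A members lie side by side, of which Abca8a, Abca6 and Abca8b stood at 23.6, 23.3 and 18.0 RPKM, while Abca9 stood at 1.76 RPKM and Abca5 at 0.991 RPKM. On chromosome 5 (8567091 to 8959226) the phospholipid exporter gene Abcb4 stood at 43.0 RPKM and its neighbours for P-glycoprotein, the drug efflux pump, at 1.92 RPKM (Abcb1a) and 0.148 RPKM (Abcb1b). In the testis-type cluster on chromosome 7 (120203888 to 120544892) Abca14 stood at 0.082 RPKM, and Abca15 and Abca16 had no count in any library. In the divergent pairs introduced above, Abcg5 and Abcg8 were both high, at 82.2 and 43.5 RPKM, whereas Abca3, a lipid transporter best known from lung surfactant, stood at 8.15 RPKM beside Abca17, which had at most 3 counts in a library.

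Some member counts carry extra doubt, since the handling of multi-mapped reads and of strand is not stated. In annotated Abcb6 transcripts 52.1% of the 31-base words also occurred in Gm29253, a gene of the GENCODE annotation with no row in the count table. Words were compared on both strands without regard to genomic position, so gene models that overlap at the same locus also count as sharing. How many reads were affected was not tested. Of the 31-base words in Abcb1a (GENCODE M21), 21.7% also occurred in Abcb1b, and 14.8% of those of Abcb1b occurred in Abcb1a. For Abca8b the largest partner was Abca8a, with 2.48%. Words found in any other gene made up 28.2% for Abcb1a, 17.4% for Abcb1b and 12.1% for Abca3. They made up 9.12% for Abcb10, 8.94% for Abcf2, 5.59% for Abce1 and 5.07% for Abca8b. Exons of the count table overlapped an exon of an opposite-strand gene over 10.5% of the length of Abca3 (D330041H03Rik) and 1.66% for Abcg5 (Abcg8). That overlap was 3.29% for Abcb1b (Gm5106), 2.67% for Abca6 (LOC108167936) and 1.94% for Abcc9 (5330439B14Rik). For Abca3, D330041H03Rik was also the largest word partner, with 8.81%, so its word and exon figures may in part count the same sequence. No member shared exon bases with a same-strand gene of the table.

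Between the vectors, the family differed little. Of the 49 members 39 passed the filter on low counts and were tested, and 0 were called, a call being a Benjamini-Hochberg adjusted p under 0.05 from edgeR's quasi-likelihood F test over all genes. Among all 14374 genes tested 0% were called (0 genes), the smallest adjusted p of the members and of all genes being 0.816. DESeq2 called 3 genes and limma-voom 0, none of them a member, and 778 genes had an unadjusted p under 0.05 with edgeR. At an unadjusted p under 0.05 there were 4 members, 3 higher with Cre-miR122 (Abcc2, Abca5 and Abca2) and 1 lower (Abca14), beside 2.76% of all genes higher and 2.65% lower. Their number was 8 when Cre replicate 12 was left out, 8 when Cre-miR122 replicate 1 was, and 1 when Cre-miR122 replicate 4 was, and the share of all genes moved too, to 10.5%, 7.79% and 2.90% in those 3 fits beside 5.41% with all libraries. The groups did not overlap for 4 members higher with Cre-miR122 (Abcc2, Abca5, Abca2 and Abcb8) and 2 lower (Abcc1 and Abca14), which is 10.3% and 5.13% of the tested members, beside 5.69% and 5.45% of all genes. That number of 6 (15.4% of members, beside 11.1% of all genes) became 13 with Cre-miR122 replicate 1 left out (32.5%, beside 27.6% of all genes) and 15 with Cre replicate 12 left out (38.5%, beside 28.4% of all genes). A log2 fold change (Cre-miR122 minus Cre) above 0 was found for 26 tested members and below 0 for 13, with a median of 0.050, beside 49.4% of all genes above 0 and a median of -0.0029. The median of the members was 0.115 with Cre replicate 12 left out, 0.033 with Cre replicate 11 left out and 0.023 with Cre-miR122 replicate 4 left out. Fold changes lay within 0.25 of 0 on the log2 scale for 31 of 39 members, and the 95% interval lay inside -1 to 1 for 37 and inside -0.5 to 0.5 for 23.

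**Figure D2:**
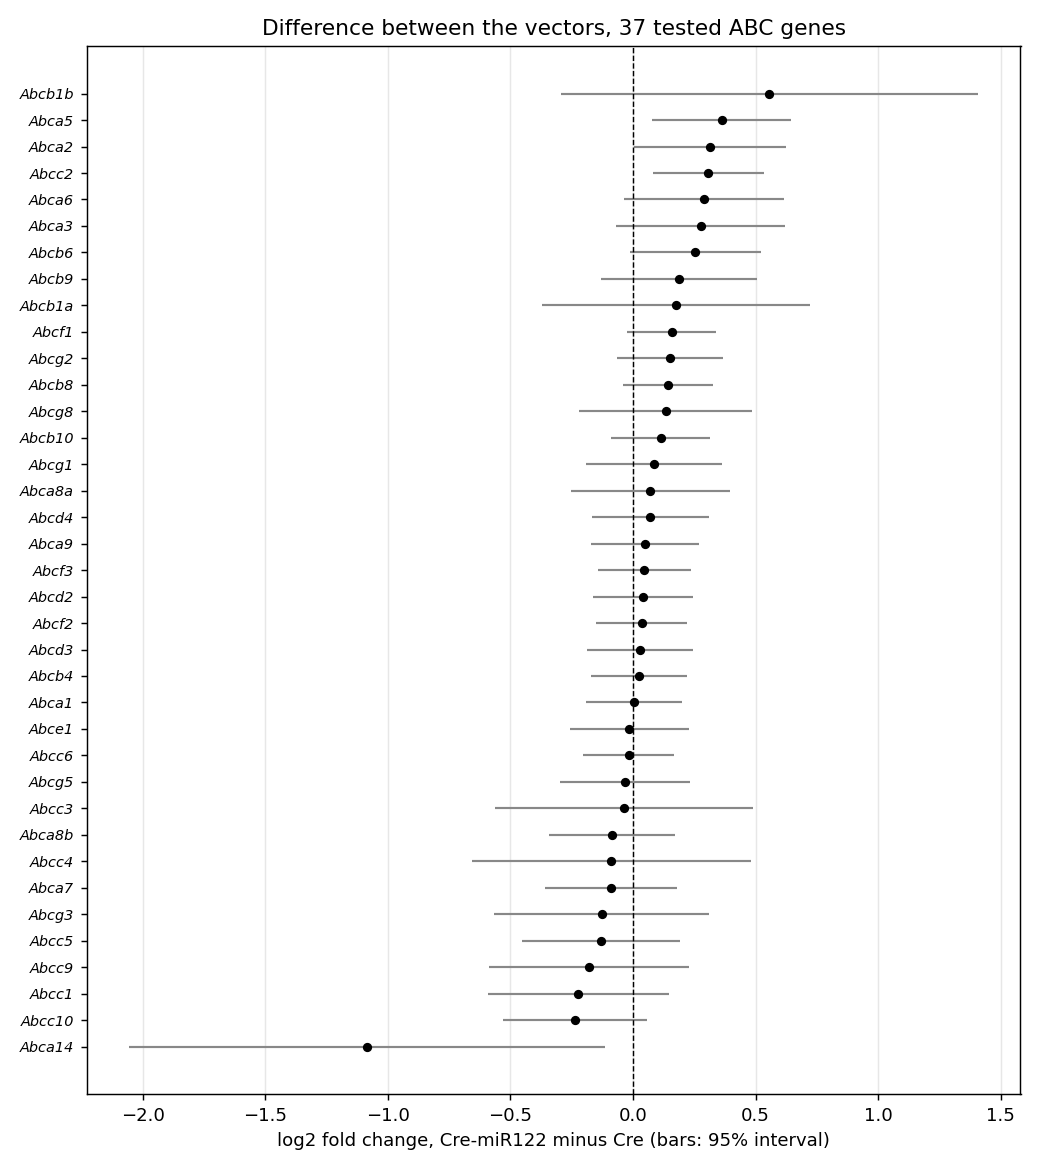
Log2 fold change (Cre-miR122 minus Cre) of 37 tested ABC genes with its 95% interval from the edgeR fit, ordered by size. Abca14 is lowest (-1.08) and Abcb1b highest (0.56), both with wide intervals from few counts, and most other points lie close to 0.

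Canalicular exporters, 7 in number, had a median log2 fold change of 0.15, with 6 above 0 and 1 below, and 0 called. Abcc2, also known as MRP2, exports bilirubin glucuronide and other conjugates into bile. It stood at 274, 241 and 244 CPM in the Cre-miR122 libraries and at 205, 182 and 226 CPM in the Cre libraries. Every Cre-miR122 library, the lowest at 241 CPM, lay above every Cre library, the highest at 226 CPM. The averages were 253 ± 18.6 and 204 ± 21.7 CPM (SD, n = 3 each, Cre-miR122 and Cre), a 1.24-fold difference (log2 fold change 0.31, SE 0.10, 95% interval 0.08 to 0.53) with an edgeR adjusted p of 0.816 and an unadjusted p of 0.0131. Leaving out each library in turn kept it between 0.23 and 0.39. Its position is chromosome 19, 43782308 to 43838332, plus strand.

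The sterol exporter genes did not separate the vectors. Abcg5 stood at 198, 189 and 201 CPM with Cre-miR122 and at 219, 163 and 220 CPM with Cre, and the Cre-miR122 values lay inside the range of the Cre values. Abcg8 stood at 169, 162 and 184 CPM with Cre-miR122 and at 164, 116 and 190 CPM with Cre. For both genes Cre replicate 11 was the lowest of the 6 libraries. The log2 fold changes were -0.03 (SE 0.12) for Abcg5 and 0.13 (SE 0.16) for Abcg8, and without Cre replicate 11 they were -0.16 and -0.043. Abcb4, the floppase that brings phosphatidylcholine to the canalicular surface, was at 182 ± 5.30 CPM with Cre-miR122 and 179 ± 15.8 CPM with Cre (log2 fold change 0.02, 95% interval -0.17 to 0.22). Abcg2, an exporter of drugs and urate, was at 47.6, 46.6 and 47.1 CPM with Cre-miR122 and at 38.8, 40.4 and 48.2 CPM with Cre (log2 fold change 0.15, SE 0.096). The Abcg2 level of Cre replicate 12 exceeded all 3 Cre-miR122 libraries. Of the P-glycoprotein genes, Abcb1a varied more between libraries of 1 group than between groups, at 8.23, 12.5 and 12.5 CPM with Cre-miR122 and at 8.62, 7.23 and 13.7 CPM with Cre (log2 fold change 0.18, SE 0.24, and -0.0069 without Cre replicate 11). Abcb1b had 22, 9 and 16 counts with Cre-miR122 and 12, 11 and 9 counts with Cre (log2 fold change 0.56, SE 0.38), and its fold change was 0.22 without Cre-miR122 replicate 1. Over the summed counts of each group Abcb1b stood at 0.765 CPM with Cre-miR122 (exact 95% Poisson interval 0.562 to 1.02) and at 0.519 CPM with Cre (0.355 to 0.733), intervals that cover counting error only.

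**Figure D3:**
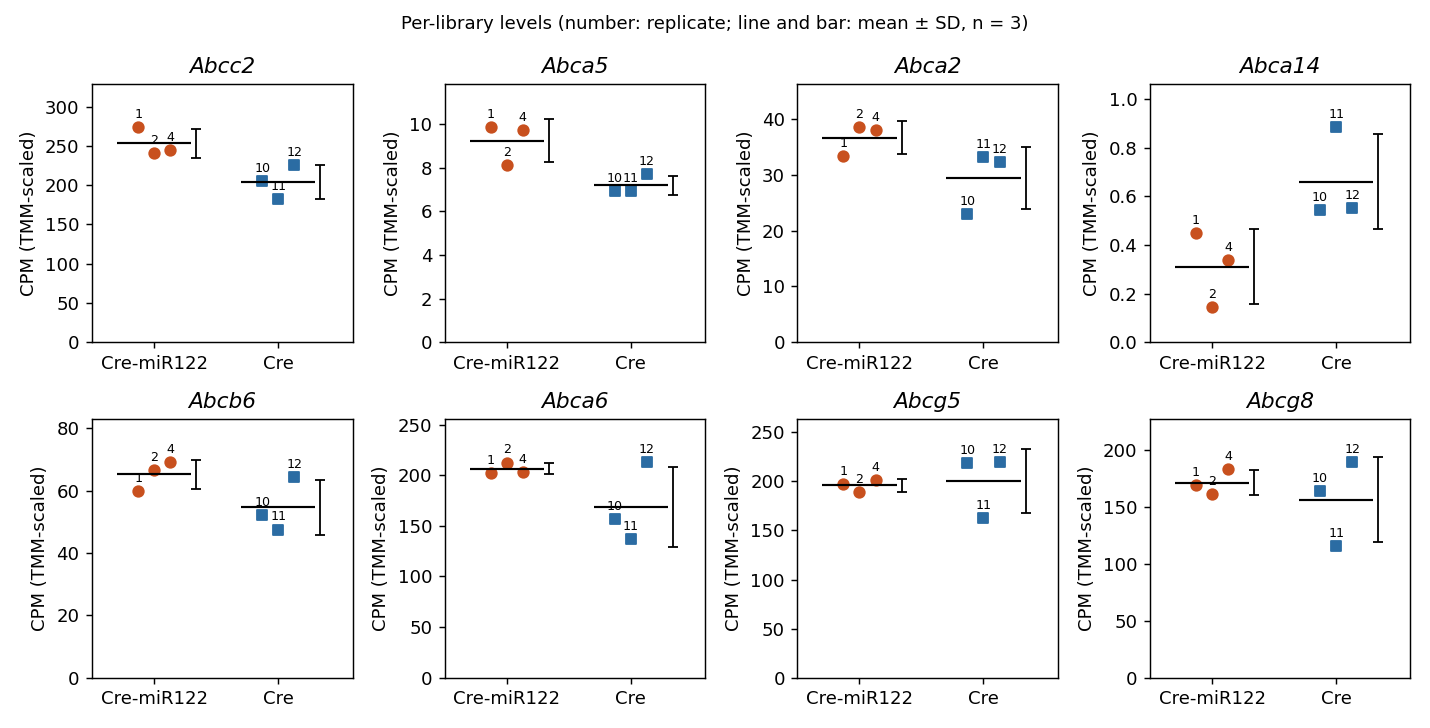
CPM in each library (TMM-scaled, linear axis from 0) of 8 ABC genes, Cre-miR122 on the left and Cre on the right of each panel, with the replicate number above each point and the mean and SD beside it (n = 3). Abcc2, Abca5 and Abca2 have every Cre-miR122 point above every Cre point, Abca14 has every one below, and Abcb6, Abca6, Abcg5 and Abcg8 overlap.

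Members of the sinusoidal side, 6 in number, had a median log2 fold change of -0.062, with 1 above 0 and 5 below, and 0 at an unadjusted p under 0.05. Abcc6, through which hepatocytes release ATP that yields the mineralization inhibitor pyrophosphate, had the smallest coefficient of variation of all tested members over the 6 libraries, 4.16%. It stood at 330, 348 and 330 CPM with Cre-miR122 and at 319, 344 and 357 CPM with Cre (log2 fold change -0.02, 95% interval -0.20 to 0.17). Abca1, which loads lipid onto apolipoprotein A-I to form HDL, was nearly as even, at 178, 210 and 197 CPM with Cre-miR122 and at 197, 200 and 186 CPM with Cre (log2 fold change 0.0047, 95% interval -0.19 to 0.20, and -0.011 with upper-quartile scaling). Abcc3, an exporter of conjugates to the blood, was the widest of the abundant members. It stood at 49.6, 70.9 and 56.2 CPM with Cre-miR122 and at 41.1, 55.1 and 85.0 CPM with Cre, so that the Cre livers held both the lowest and the highest value. Its log2 fold change of -0.04 (SE 0.23) was 0.29 without Cre replicate 12, -0.25 without the male library and 0.013 with limma-voom. The remaining blood-side efflux genes were low. Per length, Abcc5 was at 1.62 ± 0.259 RPKM with Cre-miR122 and 1.77 ± 0.275 RPKM with Cre (log2 fold change -0.13, SE 0.14). Without division by length, Abcc5 averaged 17.7 CPM with Cre-miR122 and 19.4 CPM with Cre, above both Abcc4 and Abcc1. Abcc4 was at 2.48 ± 0.598 CPM with Cre-miR122 and 2.64 ± 0.692 CPM with Cre (-0.09, SE 0.25, and 0.14 without the male library), and Abcc1 at 2.83 ± 0.350 CPM with Cre-miR122 and 3.31 ± 0.128 CPM with Cre (-0.22, SE 0.16). Abcc1 counts were 50, 66 and 58 with Cre-miR122 and 66, 74 and 64 with Cre, and after scaling the groups did not overlap. The closest libraries nearly touched, at 3.19 CPM in Cre-miR122 replicate 2 and 3.20 CPM in Cre replicate 12.

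Peroxisomal members import very-long-chain and branched-chain acyl substrates for oxidation, and those described here had similar values with both vectors. Abcd3 stood at 321, 387 and 373 CPM with Cre-miR122 and at 341, 347 and 374 CPM with Cre (log2 fold change 0.03, 95% interval -0.19 to 0.24). Abcd2 was at 141 ± 6.76 CPM with Cre-miR122 and 137 ± 13.3 CPM with Cre (0.04, SE 0.091). Per length, Abcd3 stood at 96.9 RPKM and Abcd2 at 21.5 RPKM.

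All 4 mitochondrial members lay above 0, with a median log2 fold change of 0.13 and 0 at an unadjusted p under 0.05. Abcb6, which has been linked to porphyrin transport and shares words with Gm29253 as given above, stood at 59.9, 66.5 and 69.1 CPM with Cre-miR122 and at 52.0, 47.5 and 64.5 CPM with Cre. Only Cre replicate 12 reached into the Cre-miR122 range, and the log2 fold change of 0.25 (SE 0.12, unadjusted p = 0.0589, edgeR adjusted p = 0.816) was 0.39 without it and 0.16 without Cre replicate 11. Abcb8 stood at 38.1, 36.3 and 39.4 CPM with Cre-miR122 and at 35.3, 32.3 and 35.5 CPM with Cre (0.14, SE 0.081). Its groups did not overlap, yet the closest libraries differed by less than 1 CPM. Abcb10, best known from haem synthesis in red cell precursors, was at 19.6 ± 1.04 CPM with Cre-miR122 and 18.1 ± 1.19 CPM with Cre (0.11, SE 0.090). Erythroid markers summed to 354 to 492 CPM in the Cre-miR122 libraries and 213 to 590 CPM in the Cre libraries, and their part in the Abcb10 values was not tested.

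Lysosomal and endosomal members, 5 in number, all lay above 0, with the highest median of the role groups, 0.28. Of these, 2 had an edgeR unadjusted p under 0.05, beside 2.76% of all genes higher at that threshold. The rank of this group was read off after the values were seen. Abca2 acts on lysosomal lipids and is best known from myelinating cells. It stood at 33.3, 38.6 and 38.0 CPM with Cre-miR122 and at 23.0, 33.1 and 32.3 CPM with Cre. The groups came within 1 CPM of each other and the male library was the low one, and the log2 fold change of 0.32 (SE 0.14, 95% interval 0.01 to 0.62, edgeR adjusted p = 0.816) was 0.17 without it. Its unadjusted p of 0.0465 in edgeR was 0.0558 with upper-quartile scaling and 0.0514 with a filter at 1 CPM in 3 libraries. With 1 library left out, the edgeR unadjusted p of Abca2 ran from 0.0233 (without Cre replicate 11) to 0.148 (without the male library). Abca5, another lysosomal member, stood at 9.87, 8.12 and 9.73 CPM with Cre-miR122 and at 6.93, 6.95 and 7.70 CPM with Cre. The groups were apart, and the log2 fold change of 0.36 (SE 0.13, 95% interval 0.08 to 0.65, unadjusted p = 0.0181, edgeR adjusted p = 0.816) stayed between 0.31 and 0.45 when any 1 library was left out. Abca3 was at 59.0 ± 9.66 CPM with Cre-miR122 and 48.7 ± 8.57 CPM with Cre (0.28, SE 0.15, and 0.14 without Cre replicate 11), with the antisense overlap given above. The peptide transporter gene Abcb9 was at 4.90 ± 0.317 CPM with Cre-miR122 and 4.31 ± 0.386 CPM with Cre (0.19, SE 0.14). Abcd4, which releases cobalamin from lysosomes, was at 12.04 ± 0.941 CPM with Cre-miR122 and 11.46 ± 0.597 CPM with Cre (0.07, SE 0.11). Per length, Abcd4 was at 3.91 ± 0.306 RPKM with Cre-miR122 and 3.73 ± 0.194 RPKM with Cre.

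In the chromosome 11 cluster 4 of 5 members lay above 0. Beside Abca5, Abca6 stood at 203, 213 and 204 CPM with Cre-miR122 and at 156, 137 and 213 CPM with Cre. The Cre-miR122 libraries were close together and Cre replicate 12 lay at their level, so that the log2 fold change of 0.29 (SE 0.14, unadjusted p = 0.0749) was 0.49 without Cre replicate 12 and 0.16 without Cre replicate 11. Abca8a stood at 115, 172 and 169 CPM with Cre-miR122 and at 136, 145 and 153 CPM with Cre, with Cre-miR122 replicate 1 the lowest of all (0.07, SE 0.14). Abca8b was at 125 ± 15.5 CPM with Cre-miR122 and 132 ± 15.3 CPM with Cre (-0.08, SE 0.11, and 0.015 without Cre replicate 11), and Abca9 at 12.8 ± 0.267 CPM with Cre-miR122 and 12.3 ± 0.850 CPM with Cre (0.05, SE 0.098).

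The soluble members, 4 in number, had a median log2 fold change of 0.041, with 3 above 0 and 1 below, and 0 at an unadjusted p under 0.05. Abce1, which splits ribosomes after termination, was at 75.7 ± 5.74 CPM with Cre-miR122 and 76.5 ± 9.87 CPM with Cre (log2 fold change -0.015, SE 0.11). Abcf1, a factor of translation initiation, was at 67.9, 74.3 and 74.9 CPM with Cre-miR122 and at 64.0, 62.1 and 68.5 CPM with Cre (0.16, SE 0.081). Only Cre replicate 12 and Cre-miR122 replicate 1 kept the Abcf1 groups from parting. Abcf2 and Abcf3 had log2 fold changes of 0.04 (SE 0.082) and 0.05 (SE 0.084).

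Among the other tested members, Abcg1, a sterol exporter prominent in macrophages, was at 14.5 ± 2.22 CPM with Cre-miR122 and 13.7 ± 0.899 CPM with Cre (log2 fold change 0.08, SE 0.12). Abca7, which takes part in phagocytosis, was at 9.51 ± 0.728 CPM with Cre-miR122 and 10.1 ± 0.957 CPM with Cre (-0.09, SE 0.12). Abcc10 stood at 22.8, 19.4 and 18.7 CPM with Cre-miR122 and at 20.6, 28.3 and 22.9 CPM with Cre (-0.24, SE 0.13), with Cre replicate 11 highest, and its fold change was -0.096 without that library. Abcg3 was at 7.71 ± 1.93 CPM with Cre-miR122 and 8.43 ± 1.18 CPM with Cre (-0.13, SE 0.19, and 0.066 without Cre-miR122 replicate 1). Abcc9, the sulphonylurea receptor SUR2 of ATP-sensitive potassium channels, stood at 44.1, 32.3 and 37.5 CPM with Cre-miR122 and at 56.3, 37.5 and 35.0 CPM with Cre. The male library was the high one, and the log2 fold change of -0.18 (SE 0.18) was 0.066 without it. Abca14 had only 9, 3 and 7 counts with Cre-miR122 and 11, 19 and 11 counts with Cre. Summed over each group it stood at 0.309 CPM with Cre-miR122 (exact 95% Poisson interval 0.186 to 0.483) and 0.665 CPM with Cre (0.477 to 0.902), with a log2 fold change of -1.08 (SE 0.43, 95% interval -2.06 to -0.11, edgeR adjusted p = 0.816). It is named here after its values were seen, as its average lay below 1 CPM.

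By subfamily, all 8 tested B members and all 4 D members lay above 0, and 7 of 8 tested C members lay below 0, Abcc2 being the exception. The medians were 0.16 for B, 0.055 for D and -0.11 for C. These counts were read off after the values were seen, and leaving out 1 library turned the sign of Abcb1a, Abcb4, Abcc3, Abcc4, Abcc6, Abcc9, Abcd2 or Abcd3.

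The median member lay 0.020, 0.065 and 0.079 above its own average of the 6 libraries on the log2 scale in Cre-miR122 replicates 1, 2 and 4, and at -0.081, -0.078 and 0.052 in Cre replicates 10, 11 and 12. Cre replicate 12 thus lay among the Cre-miR122 libraries. Cre replicate 11 was the highest or lowest library for 56.4% of tested members, beside 48.2% of all genes. The male library lay outside the range of the other 5 for 13 of 39 members, 9 below and 4 above, which is 33.3% beside 31.6% of all genes. As a ratio to the mean of the other 5 libraries, taken on a log scale, the male library was farthest from 1 in Abcc3 (0.649), with 41.1 CPM in the male library and 49.6 to 85.0 CPM in the others, Abca2 (0.655, with 23.0 CPM, others 32.3 to 38.6 CPM) and Abcc9 (1.51, with 56.3 CPM, others 32.3 to 44.1 CPM). Abcc4 came next (1.43, with 3.42 CPM, others 1.79 to 2.84 CPM). A single male library allows no test of sex.

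**Figure D4:**
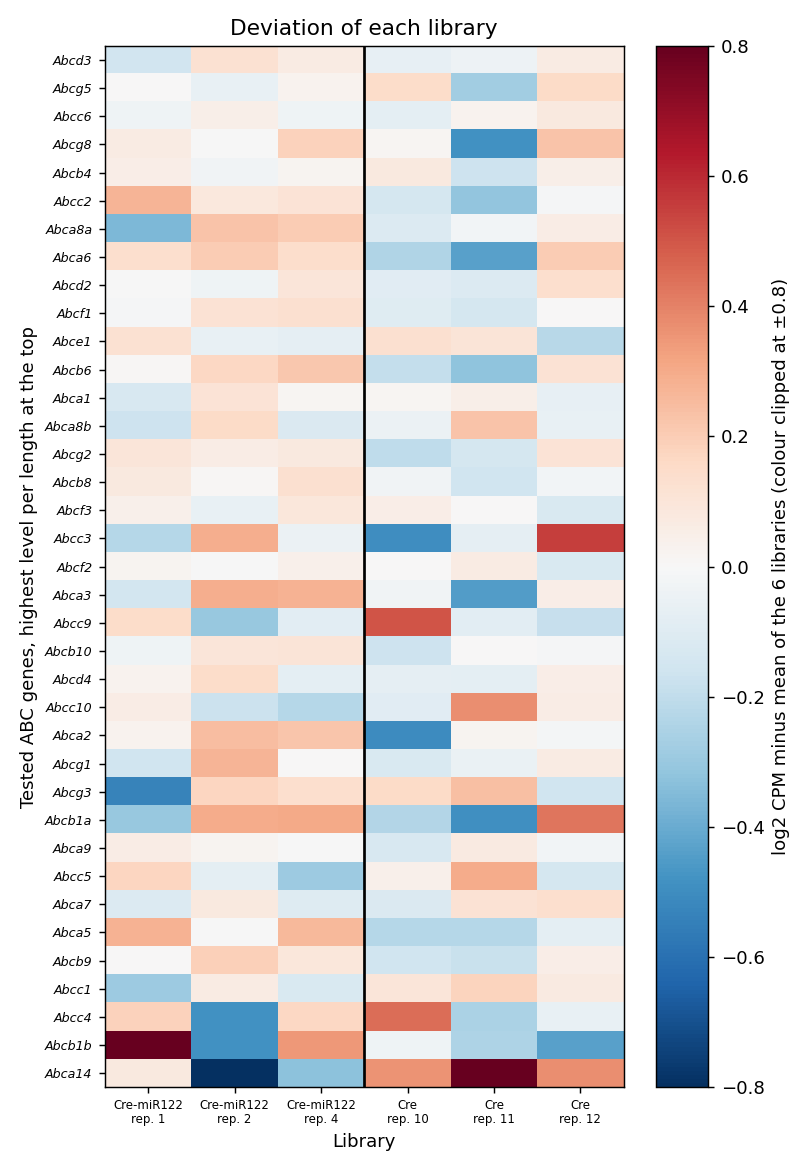
Deviation of log2 CPM from the average of the 6 libraries for 37 tested ABC genes, Cre-miR122 libraries left of the black line and Cre libraries right of it, colour clipped at 0.8 either way. Cre replicate 11 is low for Abcg8, Abca6, Abca3 and Abcb1a, and Cre replicate 10 is low for Abcc3 and Abca2 and high for Abcc9, while Cre replicate 12 resembles the Cre-miR122 libraries for Abca6 and Abcb6.

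Members outside the tested set were at the limit of detection. Abcg4 had 2 to 6 counts per library and Abca4, the retinal transporter, 2 to 11. Abcc12, Abcc8, Abca17 and Abca13 had at most 3 counts in any library. Abca12, Abca15, Abca16 and Abcb5 had 0 counts in all 6 libraries, which allows up to 0.140 to 0.150 CPM per library (3 counts, counting error only).

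Other genes of ABC transport were read from lists of proteins, regulators and partners. Tap1 and Tap2, the ABC peptide transporter of antigen presentation under other names, lay at -0.29 (SE 0.13) and -0.09 (SE 0.077), and Cftr had 20, 1 and 5 counts with Cre-miR122 and 4, 1 and 0 counts with Cre. Of 17 transcription regulators of ABC genes 11 lay above 0 and 6 below (median 0.041), with 0 called. Srebf2, the regulator of sterol genes, was the only one at an unadjusted p under 0.05, at 52.8, 50.4 and 49.0 CPM with Cre-miR122 and at 39.0, 37.9 and 48.1 CPM with Cre (log2 fold change 0.28, SE 0.10, edgeR adjusted p = 0.816). Of 19 partners of ABC transport, among them apolipoproteins and peroxisome import factors, 10 lay above 0 and 9 below, with a median of 0.017 and 0 at an unadjusted p under 0.05.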

How the data were processed

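Bulk liver mRNA was measured in 6 libraries, grouped by vector from the sample titles. The authors deposited raw counts per gene, not normalized, made with STAR 2.7.9a and featureCounts 2.0.1 on GRCm38 (mm10), per the submitters' processing notes. The sources used here do not give the handling of strand or of multi-mapped reads. In the table, 5 further count columns match no sample and were not used. CPM and RPKM were computed from the counts, TMM-scaled library sizes and the deposited gene lengths. Genes were tested with edgeR 4.0.16 (R 4.3.3, TMM, filterByExpr, quasi-likelihood F test, Cre-miR122 minus Cre, two-sided, Benjamini-Hochberg over 14374 genes). Standard errors and 95% intervals were derived from the F statistic. Each tool, including DESeq2 1.42.0 and limma-voom (limma 3.58.1), was tested on simulated data. Members and lists were chosen with earlier results of these data known. Log2 fold changes with a standard error or 95% interval were planned for called members, the 10 highest per length and a fixed set of transporters. The same held for the 5 smallest p in each direction at a mean of at least 1 CPM. P-values are printed for only some of these. The values of 2 tested members are not reported here, though counts over the members include them. The alternatives were RLE and upper-quartile scaling, 2 other filters, DESeq2, limma-voom, robust dispersion and leaving out each library.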

Additional observations from a re-analysis of the deposited data

How the results depend on the processing

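No paired analysis was possible because the groups share no replicate number. No ABC member was called under any of the 13 alternatives run. DESeq2 called 3 genes of the whole table and edgeR without a filter on low counts 2, none of them a member. The number of members at an unadjusted p under 0.05 was 2 with a CPM of at least 1 in 3 libraries, a filter that takes Abca14 out of the test and under which the edgeR p of Abca2 was 0.0514, and 1 to 8 when a library was left out. The number with groups that do not overlap was 7 to 15 and the median log2 fold change of the members 0.023 to 0.115 when a library was left out, and the share of all genes that do not overlap was then 17.1% to 28.4%. The sign held for 21 of 39 members under every alternative in which the member was tested, among them Abcc2, Abca5, Abca2, Abcb6 and Abca14. Abca14 and Abcb1b were not tested with the filter at a CPM of at least 1 in 3 libraries. For the other 18 it changed when a library was left out, with log2 fold changes of -0.053 to 0.066 for Abca1, -0.028 to 0.24 for Abca8a, -0.19 to 0.015 for Abca8b, -0.0069 to 0.49 for Abcb1a, -0.047 to 0.070 for Abcb4, -0.25 to 0.29 for Abcc3, -0.23 to 0.14 for Abcc4, -0.061 to 0.019 for Abcc6, -0.30 to 0.066 for Abcc9, -0.0057 to 0.12 for Abcd2, -0.027 to 0.11 for Abcd3, -0.12 to 0.046 for Abce1, -0.015 to 0.078 for Abcf2, -0.00048 to 0.086 for Abcf3, -0.041 to 0.18 for Abcg1, -0.25 to 0.066 for Abcg3, -0.16 to 0.041 for Abcg5 and -0.043 to 0.30 for Abcg8. Abca1 was also at -0.011 with upper-quartile scaling and Abcc3 at 0.013 with limma-voom. The cause was not tested. The order of levels moved beyond the spread between libraries for 32 of 49 members when CPM was not divided by length. With 3 libraries a group, the 95% interval reached beyond -0.5 or 0.5 for all but 23 of 39 members, and Abca14 and Abcb1b rest on few counts.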
